A study of Mus musculus with 3 samples.

Results

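The Ms4a genes encode small membrane proteins of leukocytes, and 8 of them were described here: Ms4a1, Ms4a4a, Ms4a4b, Ms4a4c, Ms4a6b, Ms4a6c, Ms4a6d and Ms4a7. They were taken by symbol from a table of 32285 genes, which holds 19 symbols that begin with Ms4a, so that 11 family genes stayed outside the set. They were chosen by their UMI levels in the cell classes and macrophage states of these same libraries, so every value below is a description and none carries a test. The libraries came from hearts of C57BL/6J mice of 8 to 9 weeks, from which CD45-stained immune cells were sorted for 3' droplet (10x) single-cell RNA sequencing, with 1 library for each of the groups labelled Sham, MI and MI-E. The labels do not expand MI-E, leave out how long after the operation hearts were taken and how many animals were pooled, and attach one ligation protocol for the left anterior descending artery to all 3 libraries, Sham included. The title of the series concerns macrophages of the heart induced by myocardial infarction. With 1 library per group, library and group cannot be told apart, no difference has a replicate check, and each interval given (95%, exact) covers counting error only.

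Proteins of the Ms4a family cross the membrane several times and sit beside other receptors, whose signalling they adjust. Ms4a1 is CD20, the B cell surface protein targeted by B cell-depleting antibodies. Ms4a4b is a T and NK cell protein, Ms4a4a marks macrophages, and Ms4a2, which is outside the set, is the beta chain of the high-affinity IgE receptor of mast cells. Ms4a4c, Ms4a6b, Ms4a6c, Ms4a6d and Ms4a7 are transcribed mainly in myeloid cells, with Ms4a4c and Ms4a6b also in lymphocytes.

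All 19 family symbols lie on chromosome 19 of GRCm38 (mm10) in GENCODE M21, between bases 10962293 and 11640851. The 8 genes span 355 kb of it. From one end they run as Ms4a1 (11249675 to 11266241, minus strand), Ms4a7 (11321039 to 11336146, minus strand), Ms4a4a (11375523 to 11392790, plus strand), Ms4a4c (11404770 to 11427246, plus strand), Ms4a4b (11443553 to 11467055, plus strand), Ms4a6c (11469366 to 11482192, plus strand), Ms4a6b (11516512 to 11531256, plus strand) and Ms4a6d (11586604 to 11604849, minus strand). Ms4a1 overlaps 4930526L06Rik, Ms4a6c overlaps BE692007 and Ms4a6b overlaps Gm19261, each on the other strand. The labels do not say whether counting used the strand. In the last 500 bases of the annotated transcripts, where 3' chemistry reads, none of the 100-base windows of 7 of the genes recurred in another gene, and 1.97% of those of Ms4a4c recurred in Ms4a4b.

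RefSeq promoter windows (GRCm38.p6, 250 bases before to 50 after the start) were matched for 6 of the 8 genes. The windows of 2 neighbouring pairs are shown because the genes of each pair share promoter sequence while, as given below, their levels differ between cell classes. Capitals mark the first of the longest runs that the windows of a pair have in common. This run has 48 bases for Ms4a6c and Ms4a6b and 20 bases for Ms4a4c and Ms4a4b. The Ms4a4c and Ms4a4b windows also share another run of 20 bases further downstream, which is not marked. No other pair of windows shared a run longer than 9 bases. All 4 windows are on the plus strand, at chr19:11469118-11469417 for Ms4a6c, chr19:11518309-11518608 for Ms4a6b, chr19:11407411-11407710 for Ms4a4c and chr19:11443308-11443607 for Ms4a4b.
Ms4a6c: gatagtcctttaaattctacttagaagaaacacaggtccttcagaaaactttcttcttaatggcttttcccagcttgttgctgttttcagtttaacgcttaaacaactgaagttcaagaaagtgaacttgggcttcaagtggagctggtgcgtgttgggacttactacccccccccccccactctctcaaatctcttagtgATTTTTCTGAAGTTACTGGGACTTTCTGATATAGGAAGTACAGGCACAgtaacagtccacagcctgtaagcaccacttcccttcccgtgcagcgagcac
Ms4a6b: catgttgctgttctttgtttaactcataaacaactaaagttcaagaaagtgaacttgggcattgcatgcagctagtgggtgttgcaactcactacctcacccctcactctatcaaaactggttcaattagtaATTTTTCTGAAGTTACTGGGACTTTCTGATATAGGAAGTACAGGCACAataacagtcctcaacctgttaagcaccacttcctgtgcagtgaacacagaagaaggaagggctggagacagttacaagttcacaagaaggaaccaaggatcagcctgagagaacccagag
Ms4a4c: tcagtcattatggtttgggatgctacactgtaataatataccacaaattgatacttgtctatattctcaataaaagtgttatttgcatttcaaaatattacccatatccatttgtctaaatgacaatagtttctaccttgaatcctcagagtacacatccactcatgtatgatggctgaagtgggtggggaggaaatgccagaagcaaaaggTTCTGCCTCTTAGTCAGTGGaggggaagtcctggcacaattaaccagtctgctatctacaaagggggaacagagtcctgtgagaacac
Ms4a4b: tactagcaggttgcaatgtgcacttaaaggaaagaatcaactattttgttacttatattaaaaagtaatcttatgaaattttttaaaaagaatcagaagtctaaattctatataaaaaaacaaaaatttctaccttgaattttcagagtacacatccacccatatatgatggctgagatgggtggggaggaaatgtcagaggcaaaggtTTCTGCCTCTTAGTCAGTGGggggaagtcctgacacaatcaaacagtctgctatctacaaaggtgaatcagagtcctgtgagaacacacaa
The marked run begins 49 bases before the start in Ms4a6c and 118 bases before it in Ms4a6b, and 38 and 41 bases before it in Ms4a4c and Ms4a4b. A search on both strands for the core of the interferon-stimulated response element, GAAANNGAAA, and for a PU.1 core, GAGGAAG, matched none of the 7 windows of the 6 genes (Ms4a7 has 2 starts), while 3.44% and 13.6% of all 32851 windows held them. Such a search says only that these letters are not in these windows.

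The 3 libraries held 9095 to 12707 barcodes and 41140109 (Sham), 98814001 (MI) and 104562768 (MI-E) UMIs, unique molecules counted once each; the Sham library was the shallowest, with a median of 2727 UMIs a barcode against 9604 in MI and 7287 in MI-E. After filters 10079, 8169 and 11004 cells stayed. Each pair of libraries had 26 to 45 barcodes in common, at most 0.396% of a library. Cell classes and macrophage states were named from marker genes, none of which was an Ms4a gene, on clusters made without the Ms4a genes. Levels are in CPM, the summed UMIs of a gene in a class scaled to one fixed total of UMIs for every class and library, and a class or state is given only where a library had at least 50 of its cells. The MI library had fewer B and NK cells than that. Counts of cells here follow the sort and the recovery of each library, so a CPM of a class says nothing of how many such cells a heart held.

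Ms4a1 marked B cells. It stood at 433 CPM (interval 418 to 448) in 2962 B cells of Sham and at 355 CPM (315 to 400) in 317 B cells of MI-E, a ratio of 0.821 (0.723 to 0.929) that stays inside the 1.5-fold used here to call a gene apart. A UMI of Ms4a1 was present in 55.2% of B cells in Sham and 45.7% in MI-E, and in 43.6% and 36.9% once every cell was thinned to 1500 UMIs. B cells held 95% of all Ms4a1 UMIs of kept Sham cells. In the other Sham classes Ms4a1 lay between 2.63 CPM in T cells and 39.1 CPM in the few red blood cells.

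Ms4a1 was also the 1 member of the set lower in the monocyte-macrophage cells of MI and MI-E than in those of Sham, at 3.61, 0.531 and 0.477 CPM in Sham, MI and MI-E. The summed level of 12 B cell markers in the same cells was 116, 12.7 and 13.1 CPM, with UMIs of all 12 in each library. A sub-cluster of 1073 Sham cells with a median of 819 UMIs, led by the B cell genes Cd79a, Ebf1 and Ly6d, held Ms4a1 at 36.8 CPM, while resident-like macrophages of Sham held 0.738 CPM. Without that sub-cluster, an alternative chosen after seeing the data, the MI over Sham ratio was 0.433 instead of 0.147 and the MI-E over Sham ratio 0.389 instead of 0.132. In Sham neutrophils Ms4a1 stood at 30.7 CPM beside a B cell marker sum of 569 CPM, and in MI-E neutrophils at 0.124 CPM beside 6.96 CPM. The part of B cell RNA in these values was not tested.

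Ms4a4b was the gene of T and NK cells. T cells carried it at 552 CPM (524 to 581) in Sham, 885 (800 to 977) in MI and 507 (465 to 551) in MI-E, and NK cells at 820 CPM (761 to 883) in Sham and 1111 (1006 to 1225) in MI-E. The ratio in T cells was thus 1.60 for MI over Sham (1.43 to 1.79) and 0.572 for MI-E over MI (0.502 to 0.653), with 73 T cells behind the MI value and 714 and 256 behind the others. The NK cell marker list reached 791, 2086 and 1035 CPM within T cells (Sham, MI, MI-E), so it was highest in the library where Ms4a4b was; its part was not tested. Among Sham T cells, those with UMIs of Cd8a or Cd8b1 and none of Cd4 carried Ms4a4b at 665 CPM (620 to 712), those with Cd4 alone at 456 CPM (377 to 546), and those with neither at 458 CPM (421 to 499). In MI-E the Cd8 cells stood at 857 CPM and the cells with neither at 263 CPM. Outside lymphocytes the gene stayed at or below 19.5 CPM in every class. Monocyte-macrophage cells, 81.8% and 56.9% of kept cells in MI and MI-E, still held 41.3% and 36.2% of its UMIs there. T cells held 36.7% and 33.7% of them, and NK cells 14.7% and 25.2%. Monocyte-macrophage cells carried it at 3.48, 5.88 and 8.65 CPM, beside T cell marker sums of 28.3, 3.58 and 7.26 CPM, and its highest states there in MI and MI-E were the interferon-responsive-like cells at 26.4 CPM in MI and 28.0 in MI-E. The MI over Sham ratio of 1.69 in these cells was 2.90 without the shallow Sham sub-cluster described for Ms4a1, which held 23.7 CPM, and the MI-E over Sham ratio of 2.49 was 4.27. With doublets kept, with each library clustered alone or as a mean of per-cell CPM, the MI over Sham ratio was under 1.5. Tnfrsf18, which encodes the surface receptor GITR with which the Ms4a4b protein is known to associate, stood at 83.1, 158 and 104 CPM in the T cells of Sham, MI and MI-E, and the T cell kinase gene Lck at 128, 205 and 187 CPM.

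Ms4a6b joined both lineages. T cells carried it at 219 CPM (202 to 238) in Sham, 394 (338 to 457) in MI and 301 (269 to 335) in MI-E, and monocyte-macrophage cells at 217, 262 and 379 CPM. Its level in T cells was highest in MI, while that in monocyte-macrophage cells was highest in MI-E. NK cells had less of it, 48.4 CPM in Sham and 113 in MI-E, and B cells 19 and 33.5 CPM. In thinned cells a UMI of Ms4a6b was found in 30%, 41.7% and 33.5% of T cells of Sham, MI and MI-E, against 2.67% and 6.04% of B cells of Sham and MI-E at median depths of 3616, 3893 and 3835 UMIs for T cells and 2299 and 2165 for B cells. Ms4a6c, the neighbour whose promoter window shares 48 bases with that of Ms4a6b, reached only 16.9 to 58.6 CPM in T cells.

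**Figure D1:**
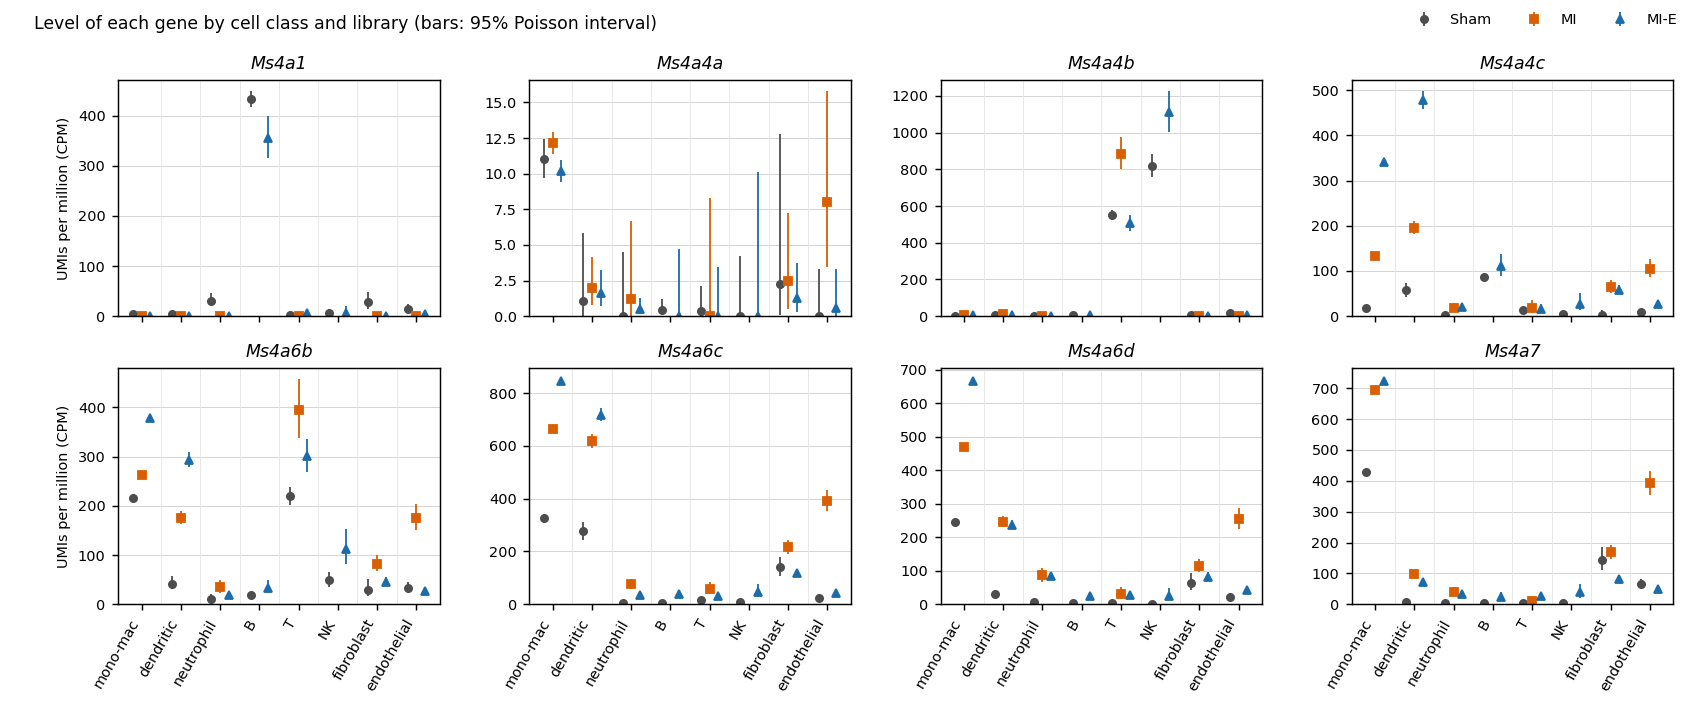
CPM (y axis, linear, its range differs by panel) of each of the 8 genes in 8 cell classes (x axis), with 1 point per library (circle Sham, square MI, triangle MI-E) and bars for the 95% Poisson interval. Ms4a1 stands out in B cells at 433 and 355 CPM, Ms4a4b in T and NK cells, Ms4a6d and Ms4a7 in monocyte-macrophage cells, and Ms4a6c in both monocyte-macrophage and dendritic cells; in monocyte-macrophage cells these last 3 are lowest in Sham.

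In monocyte-macrophage cells, the class of 4963, 6682 and 6256 cells in Sham, MI and MI-E, most of the set was higher in MI and MI-E than in Sham. Of the 8 genes, 5 were at least 1.5-fold higher and 1 lower for MI over Sham, 1 higher and 0 lower for MI-E over MI, and 6 higher and 1 lower for MI-E over Sham. For all genes with a mean of at least 5 CPM, the same rule called 25.2% of 8451 higher and 18.6% lower in MI over Sham, 4.57% higher and 5.23% lower of 8094 in MI-E over MI, and 25.6% higher and 19.4% lower of 8362 in MI-E over Sham. Members at that level numbered 6, 7 and 7, of which 4, 1 and 6 were higher and 0 lower; their median log2 ratios were 0.82, 0.50 and 1.32 beside 0.13, 0.02 and 0.12 over all genes. Since the genes were chosen with these contrasts in view, nothing is read from those counts. The class differed in makeup: resident-like cells were 41.0% of it in Sham and 0.329% in MI, Gpnmb lipid-handling-like cells 0.0403% and 31.8%, and classical monocyte-like cells 3.12%, 7.69% and 22.1% in the 3 libraries. For that reason each gene is followed by state below.

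**Figure D2:**
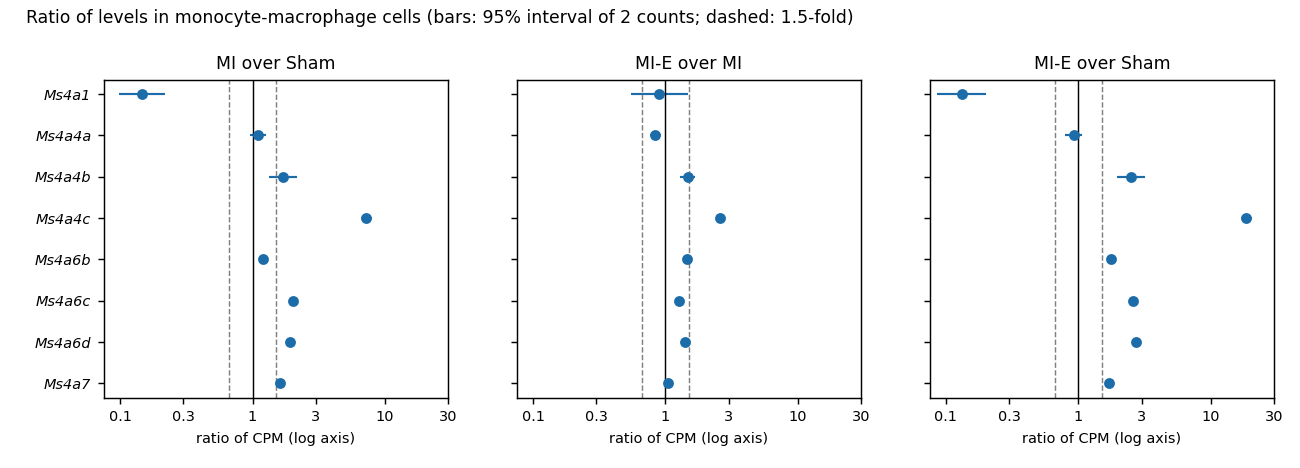
Ratio of CPM between 2 libraries in monocyte-macrophage cells (x axis, log scale) for each of the 8 genes, 1 panel per comparison, with bars for the 95% interval of 2 counts, a solid line at equality and dashed lines at 1.5-fold. Ms4a4c lies farthest to the right in all 3 panels, at 7.23, 2.57 and 18.6, and Ms4a1 farthest to the left in the 2 comparisons with Sham.

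Over the monocyte-macrophage class as a whole, Ms4a4c was the 1 member at least 1.5-fold apart between MI and MI-E. Ms4a4b, Ms4a6b and Ms4a6d came near that cut, with MI-E over MI ratios of 1.47, 1.45 and 1.42, and Ms4a4b reached 1.62 under thinning. Ms4a6c and Ms4a7 had 1.27 and 1.04, and Ms4a1 and Ms4a4a lay below 1, at 0.899 and 0.838. Ms4a4c stood at 18.4 CPM (16.7 to 20.2) in the monocyte-macrophage cells of Sham, 133 (130 to 136) in MI and 342 (337 to 346) in MI-E. The 3 intervals do not overlap, and each step upward exceeded the 1.5-fold rule, at 7.23-fold for MI over Sham (6.55 to 7.99) and 2.57-fold for MI-E over MI (2.51 to 2.63). In thinned cells a UMI was present in 1.83%, 17.7% and 38.1% of the class. In every state or sub-cluster with at least 50 cells in both libraries, 9 of 9, the MI-E level of Ms4a4c was at least 1.5 times that of MI, from 1.67-fold in Arg1-like macrophages to 3.15-fold in a sub-cluster led by Vsig4, C4b and Fcna.

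Monocytes held Ms4a4c already in Sham. Classical monocyte-like cells carried it at 253, 354 and 616 CPM in Sham, MI and MI-E, whereas resident-like macrophages of Sham had 3.61 CPM and MHC class II-high-like macrophages 6.08 CPM. The MI over Sham ratio within classical monocyte-like cells was 1.40 (1.22 to 1.61), well under the 7.23 of the whole class. Interferon-responsive-like cells had the highest level in these libraries, 535 (MI) and 916 CPM (MI-E). Arg1-like macrophages stood at 187 and 312 CPM, Gpnmb lipid-handling-like macrophages at 70.2 and 151 CPM, and cycling-like cells at 41.4 and 100 CPM. In nonclassical monocyte-like cells the gene was at 21.3 CPM in 124 Sham cells and at 409 CPM in 56 MI-E cells.

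**Figure D3:**
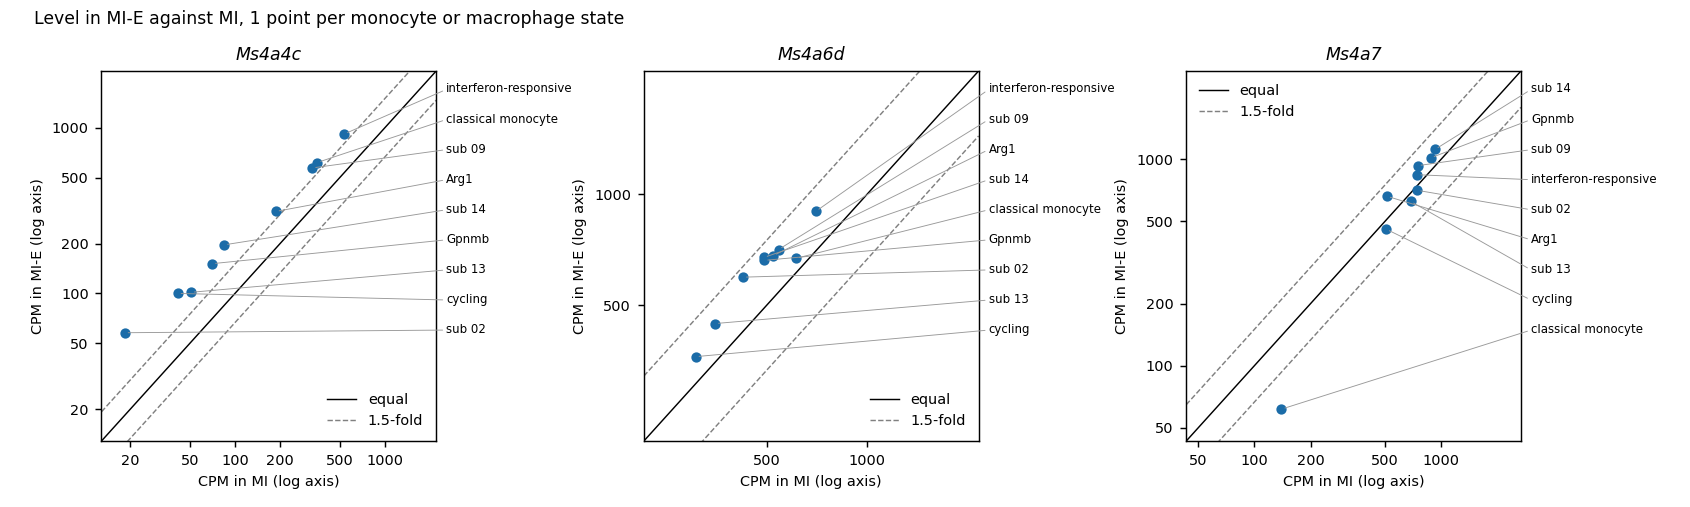
CPM in MI-E (y axis) against MI (x axis), both on log scales, with 1 point per monocyte or macrophage state or unnamed sub-cluster (sub) for Ms4a4c, Ms4a6d and Ms4a7, a solid line at equality and dashed lines at 1.5-fold. All 9 points of Ms4a4c lie above the upper dashed line, those of Ms4a6d lie between equality and that line, and for Ms4a7 classical monocytes lie below the lower dashed line.

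Ms4a7 was a macrophage gene with little in monocytes. The class as a whole had 428, 695 and 722 CPM in Sham, MI and MI-E, a 1.62-fold difference between MI and Sham (1.59 to 1.66) and 1.04-fold between MI-E and MI. Resident-like and MHC class II-high-like macrophages of Sham stood at 466 and 439 CPM, and Gpnmb lipid-handling-like macrophages at 881 CPM in MI and 1017 in MI-E. Classical monocyte-like cells had only 9.29, 140 and 61.6 CPM in Sham, MI and MI-E. MI-E monocytes thus held 2.27-fold less than those of MI (ratio 0.441, 0.395 to 0.492), opposite to Arg1-like macrophages, where the ratio was 1.29. Cavity-type-like macrophages, led by Mlxipl, Saa3 and Serpinb2 and numbering 287 in MI, carried 183 CPM, less than the resident-like cells.

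The gap between Sham and MI was wider for Ms4a6d in monocytes than in the class. It stood at 246, 469 and 665 CPM in Sham, MI and MI-E over all monocyte-macrophage cells, and at 122, 611 and 669 CPM in the classical monocyte-like cells among them. The MI over Sham ratio was thus 5.01 (4.17 to 6.08) in those monocytes and 1.91 (1.86 to 1.96) in the class. All 9 states or sub-clusters with both libraries were higher in MI-E than in MI, from 1.10-fold to 1.40-fold, with no state reaching 1.5-fold. Interferon-responsive-like cells were highest, at 702 and 898 CPM.

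Ms4a6c was highest in monocytes of all 3 libraries. Classical monocyte-like cells had 935, 1130 and 1251 CPM in Sham, MI and MI-E, against 327, 666 and 845 CPM in the whole class. Within these monocytes the MI over Sham ratio was 1.21 (1.13 to 1.30), against 2.04 (1.99 to 2.09) in the class. MHC class II-high-like macrophages of Sham had the lowest level among the named states, 180 CPM. From MI to MI-E the 9 shared states differed by 1.01-fold to 1.16-fold. Ms4a6b followed a like order, with 317, 455 and 603 CPM in classical monocyte-like cells, 110 CPM in MHC class II-high-like macrophages and 254 CPM in resident-like ones, and it was higher in MI-E than in MI in 9 of 9 states, by 1.14-fold to 1.36-fold.

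Ms4a4a was low in every class, monocyte-macrophage cells included. These held 96.5%, 91.7% and 95.7% of its UMIs in Sham, MI and MI-E, at 49.2%, 81.8% and 56.9% of kept cells. Outside them the highest levels were 9.77 CPM in Sham red blood cells (2 UMIs) and 8.01 CPM in MI endothelial cells (8 UMIs). Over the monocyte-macrophage class as a whole it did not differ by 1.5-fold between the libraries. Its level in the class was 11 CPM (9.68 to 12.5) in Sham, 12.1 (11.4 to 12.9) in MI and 10.2 (9.42 to 11.0) in MI-E. Classical monocyte-like cells carried 28.9, 26.9 and 14.6 CPM. In MI-E they thus stood at 0.542 of the MI level (0.425 to 0.692). In none of the 8 shared states or sub-clusters with enough UMIs was MI-E above MI. By the 1.5-fold rule MI-E was lower in 5 of these 8, and in 4 of the 8 the interval of the ratio excluded 1. Among the 3 clusters joined as the Gpnmb state, however, MI-E stood above MI in 2, at 25.5 (15.6 to 39.4) against 13.4 CPM (9.51 to 18.4) and at 8.63 against 7.19 CPM, and below it in the other, at 8.36 against 11 CPM. A UMI was present in 1.68%, 1.97% and 1.70% of thinned monocyte-macrophage cells, so that the gene was detected in few cells of any library.

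**Figure D4:**
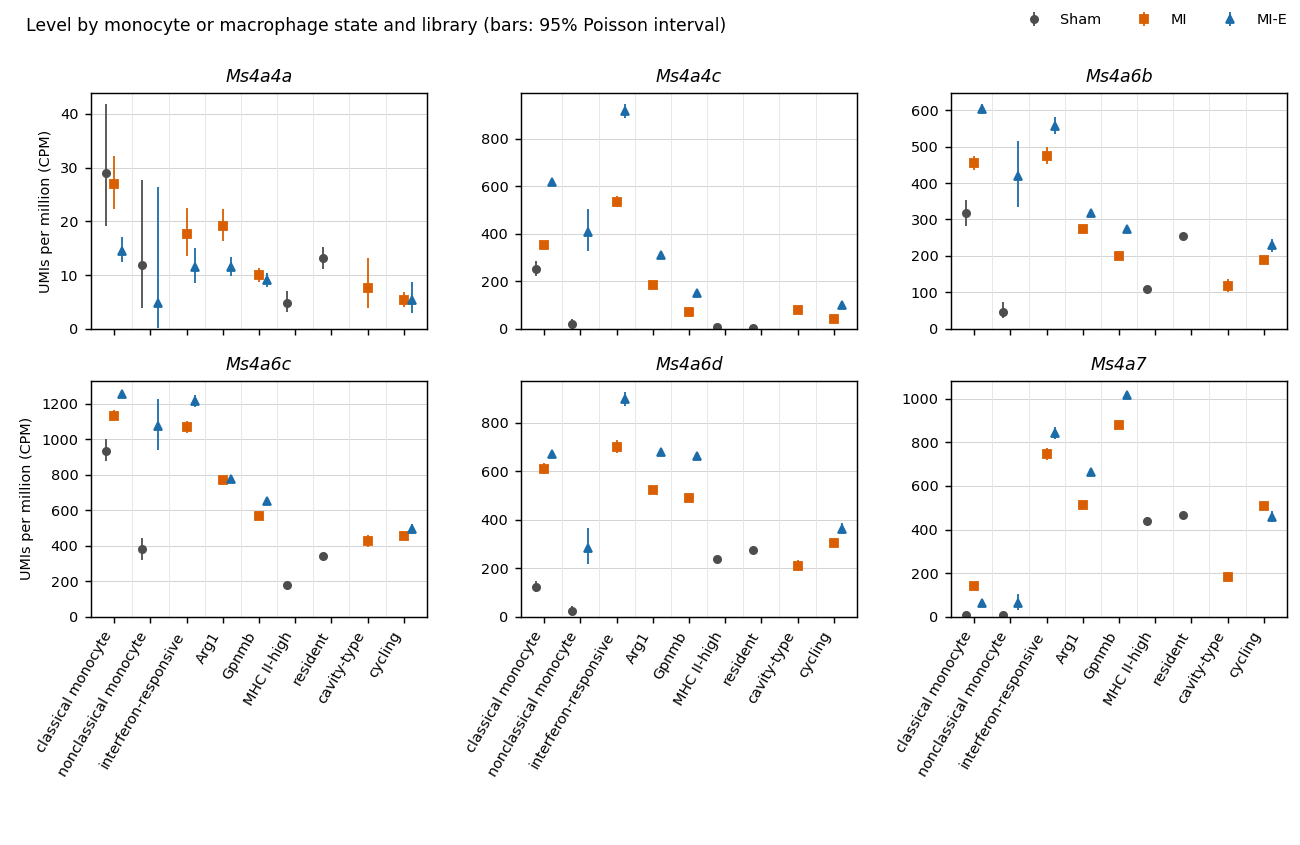
CPM (y axis, linear, its range differs by panel) of 6 of the genes in 9 monocyte or macrophage states (x axis), with 1 point per library that had at least 50 cells of the state and bars for the 95% Poisson interval. Ms4a7 is low in both monocyte states, where Ms4a6c is high, and Ms4a4c reaches 916 CPM in interferon-responsive-like cells of MI-E.

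Dendritic cells, which present antigen to T cells, also held the myeloid members at higher levels in MI and MI-E. Ms4a4c stood at 56.8 CPM in 130 dendritic cells of Sham, 196 in 354 of MI and 477 in 517 of MI-E, with ratios of 3.45 (2.61 to 4.64) and 2.44 (2.24 to 2.66) for the first and second step. Ms4a6b had 42.1, 176 and 293 CPM and Ms4a6c 276, 618 and 718 CPM. Ms4a6d went from 29.5 CPM in Sham to 246 in MI and 237 in MI-E, and Ms4a7 from 6.32 to 97.5 and 71.2 CPM. The summed level of 18 monocyte-macrophage markers in dendritic cells was 5052, 6960 and 6737 CPM. In dendritic cells the number of Ms4a6c UMIs per Ms4a7 UMI was 43.7 (on 6 Ms4a7 UMIs), 6.33 and 10.1. In the monocyte-macrophage cells of the same libraries it was 0.764, 0.958 and 1.17. Classical monocyte-like cells, part of that class, also held much more Ms4a6c than Ms4a7 in each library, as given above. The part of monocyte-macrophage RNA in dendritic cells was not tested.

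Neutrophils held the myeloid members at lower levels than monocyte-macrophage cells did. Ms4a6d stood at 6.15 CPM in 420 neutrophils of Sham, 85.9 (67.2 to 108) in 361 of MI and 84.2 (78.0 to 90.8) in 2981 of MI-E. In thinned cells its UMIs were found in 0.615%, 10.8% and 11.3% of neutrophils, and in 3.69% of MI-E B cells. Median depths of these cells were 1766 UMIs in MI and 2106 in MI-E neutrophils and 2165 in MI-E B cells. Per Ms4a7 UMI there were 2.12 and 2.45 Ms4a6d UMIs in neutrophils of MI and MI-E. The same number was 0.676 and 0.920 in monocyte-macrophage cells and 0.947 in MI-E B cells. In dendritic cells of MI and MI-E it was 2.52 and 3.33, and in T cells 2.6 (on 5 Ms4a7 UMIs) and 1.04. Classical monocyte-like cells, part of the monocyte-macrophage class, also held much more Ms4a6d than Ms4a7 in MI and MI-E, as given above. Ms4a6c UMIs per Ms4a7 UMI in these neutrophils numbered 1.85 and 1.00. The class joined a cluster led by Retnlg, which held 416 of the Sham, 108 of the MI and 1246 of the MI-E cells, and one led by Siglecf with 4, 253 and 1735. In the first, Ms4a6d stood at 6.18 (2.01 to 14.4), 49.3 (26.9 to 82.7) and 57.7 CPM (50.3 to 65.9) in Sham, MI and MI-E, and in the second at 105 CPM for MI and 108 CPM for MI-E. Ms4a6c stood at 2.47, 102 (68.4 to 147) and 35.3 CPM in the first and at 61.4 and 33.5 CPM in the second. The 102 CPM rests on 29 UMIs in 7 of 108 cells, and its interval takes the UMIs of a cell as independent. In thinned cells of the first cluster a Ms4a6c UMI was found in 2.38% in MI and 4.63% in MI-E, the opposite order. In the second cluster the shares were 6.06% and 4.44%. Over the whole class Ms4a6c had 75.2 CPM (57.8 to 96.2) in MI and 34.3 CPM in MI-E. Monocyte-macrophage marker sums in neutrophils were 4771, 5829 and 6286 CPM. The markers were not screened for genes that neutrophils transcribe themselves, so these sums cannot measure monocyte-macrophage RNA alone. The part of such RNA was not tested.

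B cells also held Ms4a4c, at 86.0 CPM (79.3 to 93.1) in Sham and 112 (89.7 to 138) in MI-E. Sham B cells had 21.0 Ms4a4c UMIs per Ms4a7 UMI, against 0.0430 in Sham monocyte-macrophage cells. Classical monocyte-like cells of Sham, part of that class, also held much more Ms4a4c than Ms4a7. B cells held 53.6% of all Ms4a4c UMIs of kept Sham cells, where they were 29.4% of cells. In MI and MI-E they held 0.0504% and 0.335%, at 0.588% and 2.88% of cells. Thinned to 1500 UMIs, 12.2% of Sham and 14.8% of MI-E B cells had a UMI of it, against 1.5% and 1.57% of T cells. Ms4a6c, Ms4a6d and Ms4a7 stood at 2.82 to 6.34 CPM in Sham B cells and at 23.2 to 38.6 CPM in MI-E B cells, beside monocyte-macrophage marker sums of 2213 and 3801 CPM; the part of free RNA was not tested. The sort also held fibroblasts and endothelial cells, 68 to 128 and 79 to 355 cells a library. In the 79 endothelial cells of MI the UMIs of Ms4a6c, Ms4a6d and Ms4a4c per Ms4a7 UMI were 0.997, 0.648 and 0.268, beside 0.958, 0.676 and 0.191 in the monocyte-macrophage cells of that library. In Sham they were 0.366, 0.352 and 0.141 in endothelial cells beside 0.764, 0.575 and 0.0430. Those Sham endothelial values rest on 26, 25 and 10 UMIs over 71 of Ms4a7. In MI-E they were 0.826, 0.837 and 0.512 beside 1.17, 0.920 and 0.473. Ms4a6b UMIs per Ms4a7 UMI were 0.507, 0.446 and 0.512 in endothelial cells of Sham, MI and MI-E, beside 0.507, 0.377 and 0.525. The part of monocyte-macrophage RNA in endothelial cells was not tested.

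Across the 47 groups of cells (class or state in 1 library), each gene had its own company. Correlations of log2(CPM + 1) are descriptions over groups that share libraries, depth and cells of one sort, and carry no p. Between members the highest was 0.91 for Ms4a6c and Ms4a6d, followed by 0.88 for Ms4a6d and Ms4a7. Over the 27 groups of monocyte-macrophage states alone, Ms4a4c and Ms4a6c gave 0.83 (0.64 over all 47), Ms4a6d and Ms4a7 0.73, and Ms4a6c and Ms4a6d 0.54. Ms4a4c and Ms4a7 gave -0.06 there and 0.30 over all 47, and Ms4a6c and Ms4a7 -0.02 and 0.71. Of 5899 other genes the closest to Ms4a1 included Cd79a and Fcmr, at 0.96 each, and the closest to Ms4a4b were Ifng, Sh2d1a and Ctsw, at 0.88 to 0.89. Ms4a4a was nearest to Lyz2 at 0.89, and Clec4a3 was among its next genes. Ms4a4c was nearest to Plac8 at 0.82, Paf1 and Adora2b, and Ms4a6b to Npc2 at 0.86, Phf11b and Pycard. Ms4a6c was nearest to Ctss at 0.93, Mcub and Aif1, Ms4a6d to the Fc receptor gene Fcgr1 at 0.98, Aif1 and Tmem106a, and Ms4a7 to Ccl12 at 0.96, C3ar1 and Pf4.

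Detection of Ms4a4c and of Ms4a7 was also compared cell by cell. Of thinned Sham monocyte-macrophage cells with a Ms4a4c UMI, 72 in number, 15.3% (7.88 to 25.7) also had one of Ms4a7, against 41.2% (39.7 to 42.8) of cells without Ms4a4c. The figures were 49.8% and 53.3% in MI and 40.8% and 53.3% in MI-E. By state, the shares of cells with and without Ms4a4c that had Ms4a7 were 17.8% against 9.36% in MI classical monocyte-like cells (6.69% against 7.26% in MI-E) and 48.6% against 42.7% in MI Arg1-like macrophages (51.7% against 51.3% in MI-E). In interferon-responsive-like cells they were 50% against 59.5% in MI and 50.9% against 63.8% in MI-E. In Gpnmb lipid-handling-like macrophages they were 70.1% against 64.5% in MI and 76.6% against 72.1% in MI-E, and the intervals overlap within each of these pairs by state; the differences were not tested.

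Of the other family genes and the relatives Tmem176a and Tmem176b, 13 of 16 listed symbols were matched in the files and 4 reached 5 CPM in monocyte-macrophage cells. In MI over Sham, 1 of these 4 was at least 1.5-fold higher and 3 were lower; in MI-E over MI it was 0 and 0, and in MI-E over Sham 1 and 3, with median log2 ratios of -2.17, 0.09 and -2.08. Tmem176b, a distant relative of the family, stood at 800.5, 64.7 and 64.4 CPM in Sham, MI and MI-E, and Tmem176a at 414, 39.0 and 43.7 CPM. Tmem176b was thus 12.4-fold and Tmem176a 10.6-fold below Sham in MI, where 5 members of the set were higher. In T cells the same 2 genes went the other way, with 39.5, 164 and 367 CPM for Tmem176a and 48.5, 171 and 306 CPM for Tmem176b in Sham, MI and MI-E. Ms4a14 stood at 23.9, 12.5 and 12.8 CPM. Ms4a8a stood at 7.61, 15.3 and 22.9 CPM over the class and stood at 145 CPM in the cavity-type-like cells of MI. Ms4a4d lay outside leukocytes, at 89.4, 50.5 and 81.2 CPM in fibroblasts.

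**Figure D5:**
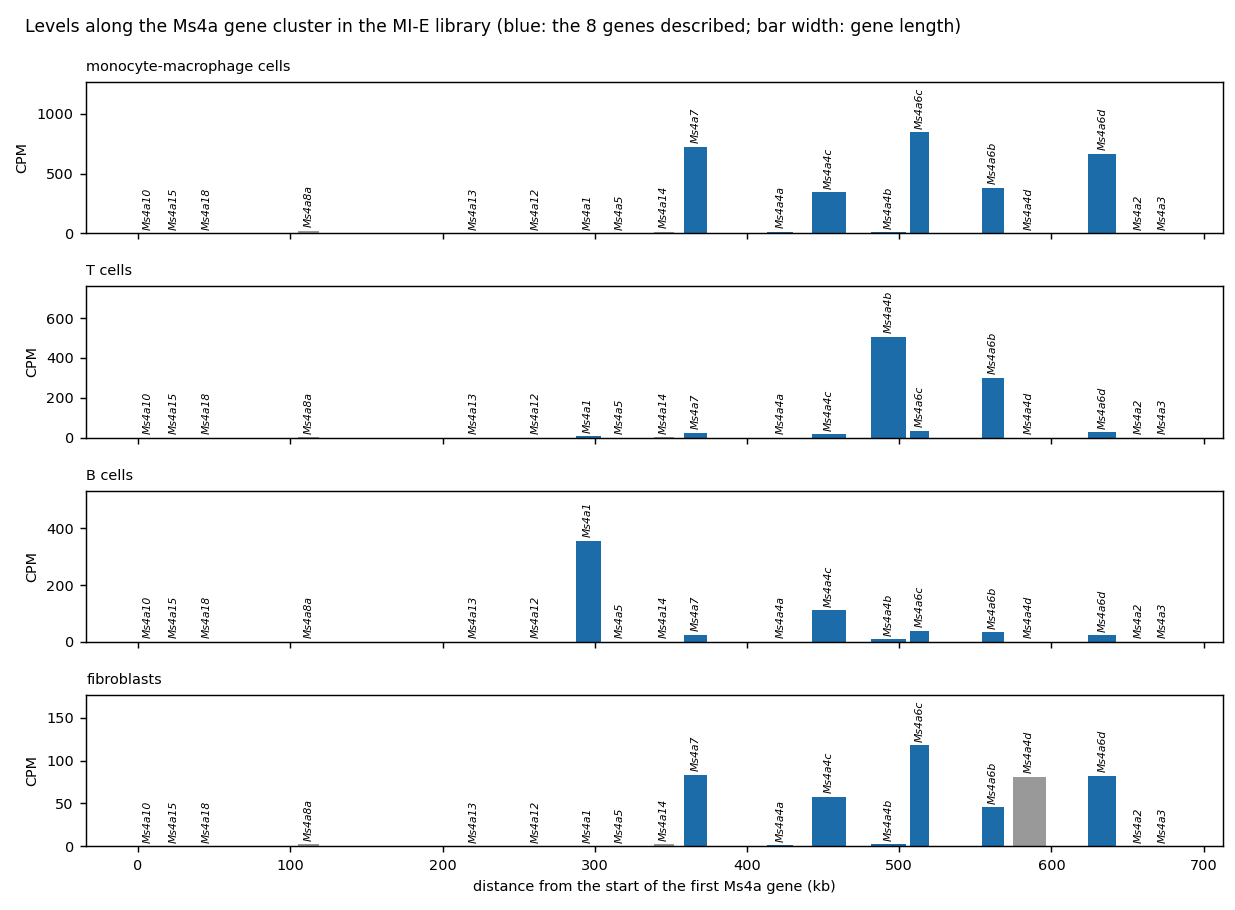
CPM in the MI-E library (y axis, linear, its range differs by panel) of the 19 Ms4a genes by distance along the chromosome from the first of them in kb (x axis), in monocyte-macrophage cells, T cells, B cells and fibroblasts; blue bars are the 8 genes described, grey the others, and the width is the length of the gene. Ms4a4b and Ms4a6b stand out in T cells, Ms4a1 in B cells and Ms4a4d only among fibroblasts.

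Of 17 listed genes whose products act with a family protein, 16 were matched. In monocyte-macrophage cells 8 reached 5 CPM in MI over Sham, of which 2 were higher (Trem2, Fcer1g) and 3 lower (Cd79a, Cd79b, Cd81); in MI-E over MI 6 did, 0 higher and 1 lower (Cd81), and in MI-E over Sham 8, 2 higher (Trem2, Syk) and 3 lower (Cd79a, Cd79b, Cd81). Trem2, a lipid receptor of macrophages, stood at 209, 671 and 551 CPM in Sham, MI and MI-E, an order of MI and MI-E opposite to that of Ms4a4c, Ms4a6c and Ms4a6d. Fcer1g, the Fc receptor common gamma chain, had 2509, 3855 and 3530 CPM. Cd81, a tetraspanin, had 852, 110 and 62.9 CPM. The B cell genes Cd79a and Cd79b, at 37.3 and 16.8 CPM in Sham, had the course of Ms4a1 in these cells.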

How the data were processed

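Each of the 3 samples has a gene-by-barcode matrix of UMI counts, deposited by the authors as whole numbers without normalization. Per the submitters' processing notes, Cell Ranger 5.0.1 and the mm10 build were used; the annotation release and the use of strand are not given in the sources used here. Barcodes needed 200 or more genes and no more than 10% mitochondrial UMIs. Doublets were scored with Scrublet in scanpy 1.11.5 and removed at the rate expected for the number of cells, because the automatic threshold marked under 0.5% of cells in each library. The libraries were clustered together (2000 variable genes without the Ms4a and Tmem176 genes, 30 components, 15 neighbours, Leiden resolution 1), and clusters were named from marker lists, so classes are rebuilt and not the authors' own. CPM was computed from summed UMIs per class and library, with exact Poisson intervals; ratios have exact conditional intervals, and shares of cells exact Clopper-Pearson intervals. A ratio of at least 1.5-fold was called apart, and 3 counts served as the floor. For thinned shares, each cell was sampled to 1500 UMIs, which left out 1735 Sham, 372 MI and 737 MI-E cells. Depth was 41140109 to 104562768 UMIs a library; the intervals hold counting error alone, and with a single library in each group no test was run. All 8 members are described; further genes named are those of the family and partner lists, and the 3 genes most correlated with each member among those reaching 50 CPM in a group, of which some are not reported here. The members and lists were chosen with earlier results of these data known. Alternatives were the doublet, gene-number, mitochondrial and resolution settings, clustering each library alone, TMM factors (edgeR 4.0.16), thinning and per-cell means. The calculations were tested on simulated data.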

Additional observations from a re-analysis of the deposited data

Results flagged for a closer look

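By the 1.5-fold rule, Ms4a7 was higher in MI-E than in Sham in 6 classes and lower in 1; in endothelial cells its ratio of 0.795 (0.574 to 1.10) lay within the rule. The ratio was 5.98 in B cells, 11.1 in NK cells (3.11 to 60.4), 8.41 in T cells, 11.3 in dendritic cells, 1.69 in monocyte-macrophage cells and 6.98 in neutrophils, against 0.577 in fibroblasts. Apart from the monocyte-macrophage class, the Sham values rest on 3 to 71 UMIs of the gene, that of NK cells on 3, the floor. The summed level of 18 monocyte-macrophage markers in fibroblasts was 16684 (Sham) and 3703 CPM (MI-E). In the same order it was 2213 and 3801 CPM in B cells, 916 and 1879 in T cells and 1259 and 2231 in NK cells. Dendritic cells had 5052 and 6737 CPM, neutrophils 4771 and 6286, and endothelial cells 6257 and 1982. The part of monocyte-macrophage RNA was not tested.

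Ms4a4c was higher in MI-E than in MI in dendritic cells (2.44) and monocyte-macrophage cells (2.57) and lower in endothelial cells (0.248). Ms4a6b was higher in dendritic cells (1.67) and lower in endothelial cells (0.149), fibroblasts (0.555) and neutrophils (0.543). The MI neutrophil value rests on 29 UMIs in 17 of 361 cells. In thinned neutrophils a Ms4a6b UMI was found in 4.42% (2.23 to 7.77) in MI and 2.81% (2.20 to 3.52) in MI-E, intervals that overlap. The monocyte-macrophage marker sum in endothelial cells was 13377 CPM in the 79 cells of MI and 1982 CPM in the 165 cells of MI-E, and in fibroblasts 6208 and 3703 CPM. In neutrophils it went the other way, at 5829 and 6286 CPM. In none of these cases was the difference between classes tested, since each group has 1 library, and the part of monocyte-macrophage RNA was not tested.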

How the results depend on the processing

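The number of the 8 genes at least 1.5-fold apart in monocyte-macrophage cells was 6 for MI over Sham and 5 or 6 under the 12 alternatives, and 7 for MI-E over Sham under all 12. For MI-E over MI it was 1 and became 2 with doublets kept, with each cell thinned to 1500 UMIs and as a mean of per-cell CPM; the added gene was Ms4a4b under thinning and Ms4a1 under the others. Over the alternatives the Ms4a4c ratio ran from 6.60 to 10.6 for MI over Sham, 2.44 to 2.60 for MI-E over MI and 17.1 to 26.0 for MI-E over Sham. That of Ms4a4b for MI over Sham ran from 1.06 to 2.90 and lost its call in 3. That of Ms4a1 for MI-E over MI ran from 0.585 to 1.55. The calls of the 6 genes other than Ms4a1 and Ms4a4b held in all 12 alternatives, of which leaving out the shallow Sham sub-cluster was chosen after seeing the data. Values moved more than calls. Under thinning 17 ratios left their counting interval and 7 stayed, and the same numbers held for per-cell means. With doublets kept, 58 class levels left their interval and 126 stayed. At a sub-clustering resolution of 0.5, 28 levels of named states left theirs and 100 stayed. The cause of these shifts was not tested. No paired analysis was possible because each group has 1 library. Depth limits Ms4a1, Ms4a4a and Ms4a4b outside their main classes, where many values rest on under 10 UMIs.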
